A study of Mus musculus with 466 samples.

Results

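Wt1, Upk3b, Upk1b, Msln, Lrrn4 and Krt19 are genes of the mesothelium, and they were followed as a group of 6 among the 16643 genes that the arrays measured. Each gene was found by its symbol in the array's probe-to-gene table and was represented by its probe set with the highest mean over all 466 arrays. Lrrn4 was reached through an older symbol, B430119L13Rik. Upk1b had 3 probe sets, and the other 5 genes had 1 each. The arrays came from 80 male C57BL/6J mice, described by the submitters as obese, that were put on caloric restriction for 0, 1, 3, 7, 14, 21, 42 or 60 days. Liver, hypothalamus and 4 fat depots were taken from them. The 312 fat arrays comprised 78 labelled abdominal subcutaneous, 79 labelled mesenteric, 80 labelled perirenal and 75 labelled perigonadal. Most days held 9 to 12 mice per depot, day 1 held 5 and day 60 held 6. Day 0 was the only group without restriction, so the days of restriction and the age of the mice cannot be told apart. All mouse numbers but 1 carried a letter, J or N, whose meaning the labels do not give. Day 1 held J mice alone and day 60 held N mice alone. The labels do not say how the obesity was induced or how severe the restriction was.

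The mesothelium is the single sheet of flat epithelial cells that lines the peritoneal cavity and wraps the organs and fat pads inside it. Fat that hangs in the cavity is covered by it, whereas fat under the skin is not, so mesothelial genes are used to tell visceral from subcutaneous fat. The sheet makes a lubricating fluid, and its cells keep both epithelial keratins and transcription factors of the embryonic body wall lining.

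The depot names were set against marker genes of neighbouring tissues before the mesothelial genes were read. Summed intensities of 6 intestinal epithelium genes ran from 4.75 to 46.5 in the labelled subcutaneous arrays and did not exceed 3.02 in the other fat. Fabp2, the fatty acid binding protein of the gut lining, had a median of 11.5 there and 0.0286 in the labelled mesenteric arrays. Adam7 and Lcn5, genes of the epididymis, had medians of 0.258 and 0.328 in the labelled mesenteric arrays, with sums over 6 epididymal genes of up to 22.9, against at most 0.398 in any other fat array. Tbx15, which marks fat under the skin, had its highest median, 0.520, in the labelled perigonadal arrays and a median of 0.0543 in the labelled subcutaneous arrays. Summed skeletal muscle genes were also highest in the labelled perigonadal arrays (median 20.8), and Ucp1, the brown fat uncoupling protein, in the labelled perirenal arrays (median 11.8). The keratinocyte and mammary epithelium list (Krt15, Trp63, Epcam and Cdh1 measured) was highest in the labelled subcutaneous arrays, with a median sum of 7.07. The labelled mesenteric, perirenal and perigonadal arrays had 0.613, 1.06 and 0.682. Which of its genes carried this was not tested. Apart from this list, the labels subcutaneous, mesenteric and perigonadal go against the marker genes given here. Each depot is named here by its label alone, as "labelled", and no other name is given to it.

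All 6 mesothelial genes were lower in the labelled perigonadal depot than in the other 3 fat depots, with no overlap between the arrays. Taken by the labels, these genes of visceral fat were thus highest in the subcutaneous and lowest in the perigonadal depot. How many of all genes separate these arrays without overlap was not counted, so the separation is not shown to be particular to these 6. Levels are the deposited linear intensities, a relative unit in which the mean of an array was close to 1, and they are compared between depots but not between genes. Wt1 encodes a zinc-finger transcription factor kept on in mesothelium from the embryo. Its intensity ran from 0.206 to 1.20 (median 0.752) in the labelled subcutaneous arrays, from 0.275 to 0.828 (median 0.506) in the labelled mesenteric arrays, from 0.0785 to 0.429 (median 0.255) in the labelled perirenal arrays and from 0.0185 to 0.0226 (median 0.0202) in the labelled perigonadal arrays. The lowest array of the first 3 depots thus lay above the highest labelled perigonadal array. Liver had a median of 0.0501 and hypothalamus of 0.0189, so the labelled perigonadal level was close to that of brain tissue.

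Upk3b and Upk1b encode uroplakins, membrane proteins first known from the bladder lining and also made by mesothelium. Upk3b had medians of 4.24 (0.649 to 6.35) in the labelled subcutaneous, 2.66 (1.24 to 4.75) in the labelled mesenteric and 1.66 (0.396 to 3.16) in the labelled perirenal depot, against 0.0814 (0.0715 to 0.0933) in the labelled perigonadal depot. It kept the order of Wt1. Upk1b, a tetraspanin that pairs with uroplakins of the Upk3 kind, had medians of 0.630 (0.190 to 0.966), 0.400 (0.204 to 0.921), 0.517 (0.219 to 1.55) and 0.117 (0.0821 to 0.168) in the same order of depots. Here the labelled perirenal depot stood above the labelled mesenteric one and held the highest single array. Of its other probe sets, one had medians of 0.592, 0.389, 0.426 and 0.0277 and the other of 0.242, 0.146, 0.140 and 0.0181, so all 3 were lowest in the labelled perigonadal depot, while the labelled mesenteric and labelled perirenal depots changed places.

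Msln encodes mesothelin, a cell surface protein anchored in the mesothelial membrane. It had medians of 1.24 (0.324 to 1.94), 0.925 (0.400 to 1.57), 0.528 (0.266 to 1.03) and 0.0407 (0.0328 to 0.0499) in the labelled subcutaneous, mesenteric, perirenal and perigonadal depots. Lrrn4, a leucine-rich repeat membrane protein, had medians of 0.559 (0.145 to 0.949), 0.322 (0.160 to 0.632), 0.185 (0.0961 to 0.339) and 0.0346 (0.0260 to 0.0498). Both followed the order of Wt1 and Upk3b. Krt19, a keratin of simple epithelia that the gut and the bladder lining also make, had medians of 9.86 (1.28 to 16.8), 2.13 (1.05 to 4.94), 2.23 (0.735 to 5.64) and 0.302 (0.185 to 0.50). It was set apart by its height in the labelled subcutaneous depot and by near-equal levels in the labelled mesenteric and labelled perirenal depots.

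**Figure D1:**
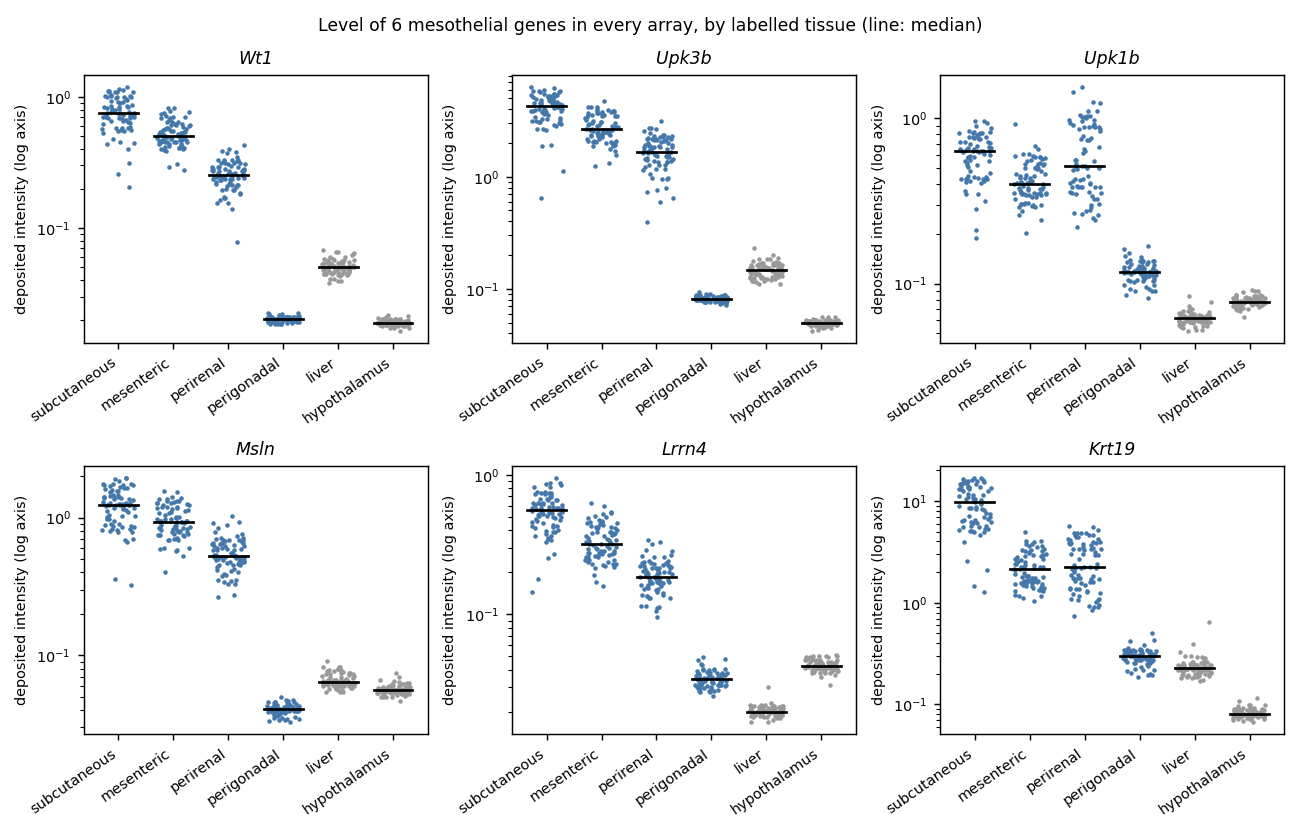
Deposited intensity (log axis) of each mesothelial gene in all 466 arrays, by labelled tissue, with fat arrays in blue, other tissues in grey and the median as a line. For all 6 genes the labelled perigonadal arrays lie below every array of the other 3 fat depots; Upk1b and Krt19 are widely spread in the labelled perirenal depot.

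The order held inside single animals. Of the 73 mice with an array from all 4 depots, the labelled perigonadal depot was the lowest for all 6 genes in 73. The labelled subcutaneous depot was the highest in 60 of them for Wt1, 64 for Upk3b, 54 for Msln, 64 for Lrrn4 and 70 for Krt19. For Upk1b it was the highest in 36 mice, the labelled perirenal depot in 34 and the labelled mesenteric depot in 3. The labelled mesenteric depot exceeded the labelled perirenal one in 73 mice for Wt1, 67 for Upk3b, 70 for Msln and 69 for Lrrn4, but in 22 for Upk1b and 35 for Krt19. How many of all genes keep such an order in these mice was not counted. In bulk tissue, fewer cells of a type and less RNA per cell cannot be told apart, so these levels do not say whether depots differ in the area of mesothelium or in its activity.

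The depots were compared at day 0 with limma over all 13478 genes above a low-value filter, in 12 arrays per depot (11 labelled perigonadal), with the letter as a covariate and Benjamini-Hochberg adjustment over all genes. The adjusted p fell under 0.05 for 34 of the 36 member differences. Depots differed in most genes: the share called either way was 77% for labelled subcutaneous against mesenteric, 80% against perirenal, 80.8% against perigonadal, 67% for mesenteric against perirenal, 73.5% for mesenteric against perigonadal and 64.9% for perirenal against perigonadal. A count of calls therefore says little, and the sizes carry the contrast. The median difference of the 6 genes against the labelled perigonadal depot was 5.08 (log2) for labelled subcutaneous, 3.79 for labelled mesenteric and 3.41 for labelled perirenal, where the medians over all genes were -0.03, -0.06 and -0.01.

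At day 0 Upk3b was 49.1-fold higher in the labelled subcutaneous than in the labelled perigonadal depot (log2 difference 5.62 ± 0.16 SE), Wt1 36.1-fold (5.18 ± 0.12), Krt19 36.2-fold (5.18 ± 0.26), Msln 31.8-fold (4.99 ± 0.15), Lrrn4 18.1-fold (4.18 ± 0.14) and Upk1b 4.80-fold (2.26 ± 0.19). The highest limma adjusted p among these 6 was 2.3e-14. The deposited table holds no detection calls, so these folds rest on a low denominator whose distance from background is unknown. Wt1, Msln and Lrrn4 lay below the low-value filter in the labelled perigonadal depot alone. They entered this fit by their mean over all depots, which the other depots raised, so their adjusted p against this depot is not separate support. The labelled mesenteric depot exceeded the labelled perigonadal one by 1.52 (Upk1b) to 4.81 (Upk3b) on the log2 scale, and the labelled perirenal depot by 2.27 (Upk1b) to 4.25 (Upk3b).

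Among the 3 depots that carried the genes the differences were smaller. The labelled subcutaneous depot exceeded the labelled mesenteric one by 0.67 ± 0.11 for Wt1, 0.80 ± 0.16 for Upk3b, 0.74 ± 0.19 for Upk1b, 0.61 ± 0.14 for Msln and 0.97 ± 0.14 for Lrrn4, on the log2 scale, and by 2.28 ± 0.25 for Krt19. Krt19 thus differed by more than the other 5 between these depots, as an order of sizes that was not itself tested. Against the labelled perirenal depot, 5 genes were higher in the labelled subcutaneous depot by 1.26 (Msln) to 1.94 (Krt19), and Upk1b differed by -0.01 ± 0.19 (limma adjusted p = 0.97). The labelled mesenteric depot exceeded the labelled perirenal one for Wt1 (0.93 ± 0.11), Upk3b (0.56 ± 0.16), Msln (0.65 ± 0.14) and Lrrn4 (0.64 ± 0.14), fell below it for Upk1b (-0.75 ± 0.19, limma adjusted p = 0.00058) and did not pass for Krt19 (-0.34 ± 0.25, limma adjusted p = 0.23). With J mice alone 29 of the 36 passed: Upk1b (0.64) and Msln (0.55) were lost between the labelled subcutaneous and labelled mesenteric depots, and Upk3b (0.54), Upk1b (-0.60) and Msln (0.54) between the labelled mesenteric and labelled perirenal depots.

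A further list of mesothelial genes, of which 19 of 21 were measured, leaned the same way. Against the labelled perigonadal depot at day 0, 16 of the 19 were higher and 3 lower in the labelled subcutaneous depot, 14 higher and 4 lower in the labelled mesenteric depot, and 13 higher and 2 lower in the labelled perirenal depot. Genes called higher made up 37.1%, 29.4% and 30.8% of all genes in these comparisons. Only 16 of the 19 lay above the low-value filter in the labelled perigonadal depot alone. Bnc1, a transcription factor also made by keratinocytes, was 4.78 ± 0.16 higher (log2) in the labelled subcutaneous than in the labelled perigonadal depot, and Muc16, the large surface mucin that mesothelin binds, 3.77 ± 0.15 higher. Cldn15, Dmkn and Anxa8 went the other way. Over all days their medians were 2.80, 0.614 and 0.609 in the labelled perigonadal and 2.18, 0.192 and 0.334 in the labelled subcutaneous depot.

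At day 42 the depots kept the same order, with 33 of 36 member differences called by limma among 13493 genes, where the share of all genes called was 70.5%, 75.6% and 74.6% for labelled subcutaneous against mesenteric, perirenal and perigonadal, 59.6% and 61.3% for mesenteric against perirenal and perigonadal, and 52.8% for perirenal against perigonadal. Those that did not pass were Msln in the labelled subcutaneous against the labelled mesenteric depot (0.23 ± 0.13, limma adjusted p = 0.12), Upk1b in the labelled subcutaneous against the labelled perirenal depot (0.00 ± 0.17) and Krt19 in the labelled mesenteric against the labelled perirenal depot (-0.24 ± 0.19, limma adjusted p = 0.28). Upk3b was again the gene with the widest contrast, 5.66 ± 0.13 (log2) between the labelled subcutaneous and labelled perigonadal depots. As at day 0, Wt1, Msln and Lrrn4 entered the comparisons with the labelled perigonadal depot through their levels in the other depots. Among the 3 depots that carried the genes some calls were narrow: with N mice alone, Wt1, Upk3b, Upk1b and Lrrn4 no longer passed between the labelled subcutaneous and labelled mesenteric depots (limma adjusted p from 0.084 to 0.42). With quantile normalization over all mice Wt1 (0.24, adjusted p = 0.078), Upk1b (0.25, adjusted p = 0.20) and Lrrn4 (0.29, adjusted p = 0.056) also missed the threshold there. The Upk1b difference between the labelled mesenteric and labelled perirenal depots was lost with quantile normalization (-0.36), with the mean of its probe sets (-0.15) and with N mice alone (-0.13).

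Over the days of restriction the transcripts that follow fat mass fell in all depots. Mest, an imprinted gene linked to fat expansion, fell by 1.03 ± 0.14 (log2) at day 42 in the labelled subcutaneous, 0.61 ± 0.09 in the labelled mesenteric, 0.58 ± 0.10 in the labelled perirenal and 0.51 ± 0.10 in the labelled perigonadal depot. Lep, which encodes leptin, fell by 0.64 ± 0.16, 0.20 ± 0.05, 0.46 ± 0.12 and 0.13 ± 0.03 in the same order, all with limma adjusted p of at most 0.011. No mesothelial member that was tested was called lower than at day 0 on any day in any depot. At day 42 limma called 4341 of 13421 genes in the labelled mesenteric depot, of which 2032 were higher. In the labelled perigonadal depot it called 3635 of 13373, of which 1806 were higher. Most genes were thus not called lower there either, and a lack of lower calls in so few genes is not particular to them.

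In the labelled mesenteric depot limma called all 6 genes higher than at day 0 at day 21, 1 of them at day 42 and 3 at day 60. At day 0 the intensity of Wt1 was 0.290 to 0.567 (median 0.462). By day 21 it was 0.410 to 0.707 (median 0.592), by day 42 0.415 to 0.827 (median 0.649) and by day 60 0.558 to 0.828 (median 0.753). The day 0 and day 60 arrays overlapped only at the edge, where the lowest day 60 array lay below the highest day 0 array. Upk3b had a day 0 median of 2.32 (1.24 to 3.80), and its medians on days 21, 42 and 60 were 3.51 (2.18 to 4.15), 2.77 (1.57 to 4.75) and 3.74 (2.40 to 4.20). Krt19 had a day 0 median of 1.59 (1.13 to 2.97), followed on these days by 2.60 (1.29 to 4.09), 2.57 (1.20 to 4.05) and 3.25 (2.12 to 3.77). For both genes the ranges of these days overlapped that of day 0 widely.

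At day 21, where all 6 genes passed, 8.64% of 13421 genes were called higher in this depot. The log2 differences were 0.38 ± 0.098 for Wt1 (adjusted p = 0.0046), 0.49 ± 0.14 for Upk3b (adjusted p = 0.011), 0.44 ± 0.14 for Upk1b (adjusted p = 0.023), 0.40 ± 0.14 for Msln (adjusted p = 0.035), 0.51 ± 0.14 for Lrrn4 (adjusted p = 0.0094) and 0.59 ± 0.19 for Krt19 (adjusted p = 0.028). Their median was 0.46 against 0.00 for all genes. Of 12 mice, 11 lay above the day 0 mean of their own letter for Wt1, Upk3b, Msln and Krt19, 12 for Upk1b and 10 for Lrrn4. Of the further mesothelial list 7 of 18 tested genes rose and 1 fell, among them Bnc1 (0.57 ± 0.16), Muc16 (0.52 ± 0.15), Nkain4 (0.45 ± 0.13) and Gpm6a (0.49 ± 0.15).

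The late days were less even. At day 42, where 15.1% of all genes were called higher, Wt1 alone of the 6 passed (0.39 ± 0.10, limma adjusted p = 0.0015, higher in 9 of 11 mice), while Lrrn4 stood at 0.32 ± 0.15 (adjusted p = 0.084), Krt19 at 0.32 ± 0.20 and Msln at 0.11 ± 0.14. At day 60, where 11.7% were called higher, Wt1 (0.56 ± 0.12, limma adjusted p = 0.0004), Lrrn4 (0.48 ± 0.18, adjusted p = 0.039) and Krt19 (0.67 ± 0.24, adjusted p = 0.032) passed, each higher in 6 of 6 mice. With quantile normalization Lrrn4 at day 60 no longer passed (0.46, limma adjusted p = 0.059), and with no letter term Msln at day 21 did not (0.40, adjusted p = 0.063). Days 1, 3, 7 and 14 gave no call of a member, and 0.0298%, 0.305%, 0.812% and 2.02% of all genes were called higher on them. Over the 42 comparisons of this depot 10 were called and 41 of 42 estimates were positive, though all 7 days share their day 0 arrays. The 6 genes were also measured in the same arrays and varied together over mice (r from 0.29 to 0.96). Neither these counts nor the 6 calls at day 21 are therefore counts of independent results. An F test over all days passed for Wt1 (limma adjusted p = 0.00011), Lrrn4 (0.030) and Krt19 (0.031) but not for Upk3b (0.054), Upk1b (0.10) or Msln (0.13), where 38.3% of all genes passed.

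With J mice alone, which have no day 60 group, none of the day comparisons of the labelled mesenteric depot passed, and with N mice alone 16 did. The calls over all genes differed in the same direction. J mice alone gave 56 of 13432 at day 21 and 901 at day 42, and N mice alone 2148 and 3587 of 13428. These counts are therefore not a result about the members. The day 21 estimates of J mice alone were positive for all 6 genes, at 0.36 for Wt1, 0.38 for Upk3b, 0.29 for Upk1b, 0.27 for Msln, 0.33 for Lrrn4 and 0.17 for Krt19 (log2). A test of the difference between N and J mice in the day effects, added after seeing the data, called 0 of 30 by limma, as it did 0% of all genes, with 5 at an unadjusted p under 0.05, so a difference between the letters is not shown. The widest of these was Krt19 at day 42, where N mice exceeded J mice by 0.91 ± 0.37 in the change from day 0. At day 42 Wt1 ran from 0.459 to 0.827 in N mice (median 0.706) and from 0.415 to 0.649 in J mice (median 0.467). When the mean levels of 8 marker lists of other tissues were added as covariates, an alternative also chosen after seeing the data, 2 calls were left, Wt1 at day 42 (0.34 ± 0.10, limma adjusted p = 0.010) and at day 60 (0.41 ± 0.13, adjusted p = 0.031). The stromal progenitor list, which was not among these covariates, had a median sum of 10.6 at day 0 and 12.2 at day 21, and the intestinal list, which was, of 1.53 and 1.81; their part in the result was not tested one by one.

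**Figure D2:**
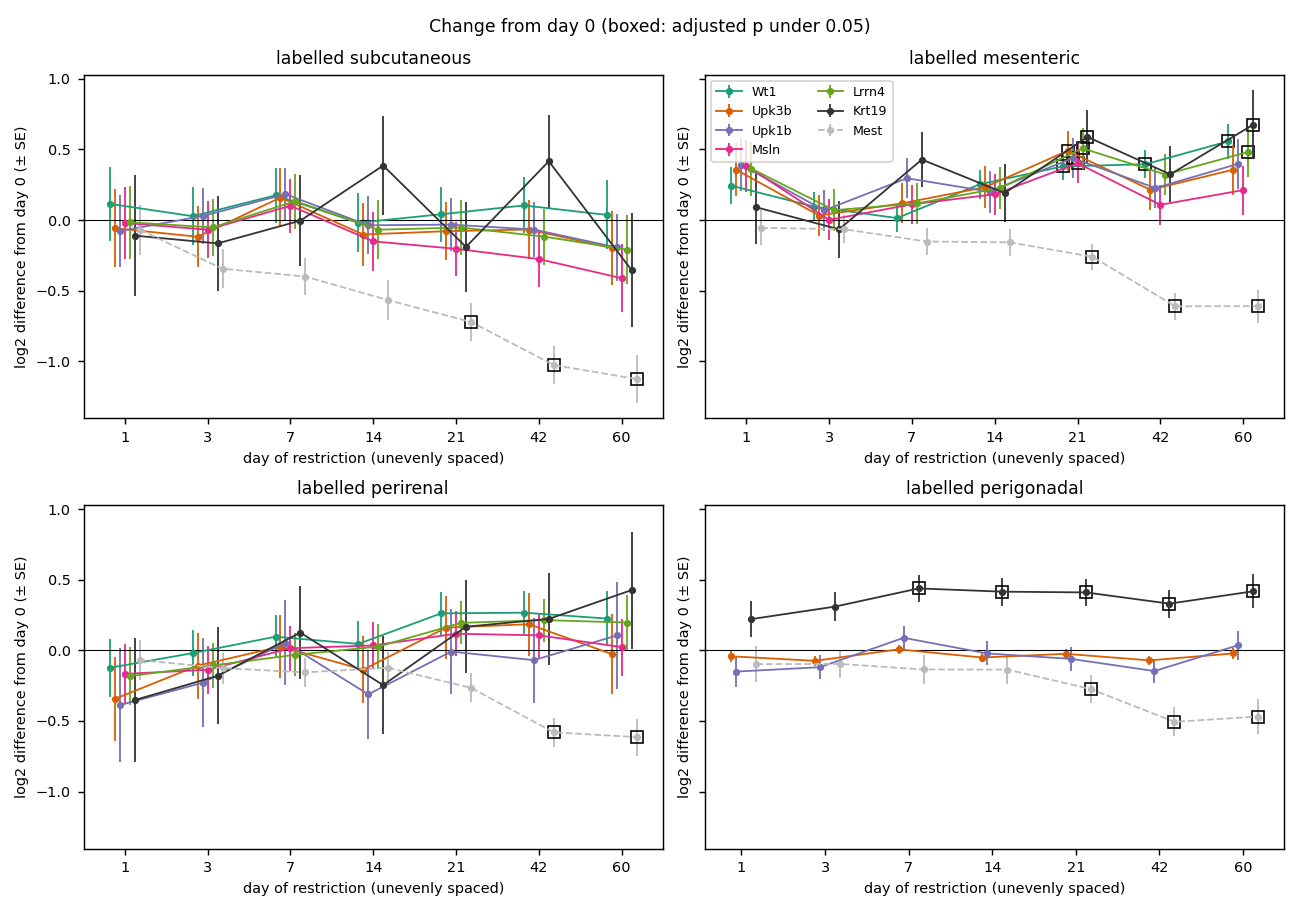
Log2 difference from day 0 (± SE, limma) for the mesothelial genes and, dashed, for Mest, by day of restriction in each labelled depot, with boxes where the adjusted p was under 0.05. Mest falls in all depots, the 6 genes lie above 0 at day 21 in the labelled mesenteric depot, and in the labelled perigonadal depot, where Wt1, Msln and Lrrn4 were below the filter, Krt19 lies above 0 from day 1.

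In the labelled subcutaneous and labelled perirenal depots no member was called at any day. In the labelled subcutaneous depot, 0 of 42 comparisons passed by limma and 0 had an unadjusted p under 0.05, with estimates from -0.41 to 0.42. Few genes of any kind passed there: the share was 0% on days 1, 3 and 7, and 0.0672%, 0.157%, 4.01% and 9.84% on days 14, 21, 42 and 60. An F test over all days passed for 0 of 6 members and for 5.83% of all genes. Upk3b had a median of 4.15 (2.59 to 5.71) at day 0 and 3.90 (2.87 to 5.14) at day 42, and Msln of 1.31 (0.831 to 1.75) and 1.03 (0.789 to 1.42), with groups that overlapped almost throughout. The confidence intervals of the 42 estimates reached from -1.15 to 1.07 at their widest, so they include changes as large as those of the labelled mesenteric depot.

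In the labelled perirenal depot 0 of 42 comparisons passed and 0 had an unadjusted p under 0.05 (estimates -0.39 to 0.43), although 21.9% of all genes were called at day 42 and 20.1% at day 60. On days 1, 3, 7, 14 and 21 the share was 0.0294%, 0.0221%, 0.103%, 0.574% and 3.37%. The F test over all days passed for 0 of 6 members and for 24.8% of all genes. Wt1 there had a day 0 median of 0.244 (0.139 to 0.313), and medians of 0.281 (0.218 to 0.429), 0.293 (0.186 to 0.386) and 0.321 (0.0785 to 0.401) on days 21, 42 and 60. A single array, that of mouse N14, set the lowest day 60 value, and all 6 genes were low in it. Without it Wt1 was 0.58 ± 0.17 higher (log2) at day 60 than at day 0 (limma adjusted p = 0.012), against 0.22 ± 0.19 (adjusted p = 0.46) with it.

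In the labelled perigonadal depot Wt1, Msln and Lrrn4 lay below the low-value filter, which left 3 genes tested. Krt19 had a day 0 median of 0.225 (0.185 to 0.307), and medians of 0.312 (0.261 to 0.419), 0.292 (0.212 to 0.363) and 0.318 (0.280 to 0.346) on days 7, 42 and 60. Limma called it higher at days 7 (0.44 ± 0.097, adjusted p = 0.0013), 14 (0.42 ± 0.10), 21 (0.41 ± 0.097), 42 (0.33 ± 0.10, adjusted p = 0.0095) and 60 (0.42 ± 0.12, adjusted p = 0.0072), where 4.05%, 6.83%, 9.4%, 13.5% and 10.6% of all genes were called higher. It was not called at days 1 and 3, where 0.015% and 0.815% of all genes were. The F test over all days passed for Krt19 (limma adjusted p = 0.0035) and for 36.4% of all genes. The other members tested in this depot had no call: Upk3b lay between -0.07 and 0.01 and Upk1b between -0.15 and 0.09 on the log2 scale. With N mice alone no Krt19 call was left, at estimates of 0.13 to 0.26. Over all genes N mice alone gave 455 calls at day 7 and 2235 at day 42, against 1289 and 3635 with all mice. Without the filter, which brings in intensities near the bottom of the scale, Lrrn4 was also called at day 42 (0.40 ± 0.07, limma adjusted p = 8.3e-06), from a median of 0.0296 (0.0277 to 0.0366) at day 0 to 0.0389 (0.0347 to 0.0498).

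Whether the day 42 response differed between depots was tested directly. None of the 36 member differences passed by limma, and 4 had an unadjusted p under 0.05. The share of all genes called was 1.7% for labelled subcutaneous against mesenteric, 0.0148% for subcutaneous against perirenal, 0.357% for subcutaneous against perigonadal, 0.336% for mesenteric against perigonadal and 0% for perirenal against mesenteric and perigonadal. The lowest adjusted p was 0.14, for Lrrn4 in the labelled subcutaneous against the labelled perigonadal depot (-0.49 ± 0.15). Wt1, Msln and Lrrn4 were below the low-value filter in the labelled perigonadal depot alone. They entered its pairs through the other depot, so their differences there, this one included, rest partly on intensities near the bottom of the scale. The change at day 42 in the labelled mesenteric depot is therefore not shown to differ from that in the other depots; the day 21 change was not compared between depots.

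In the labelled mesenteric depot 5 of the 6 genes differed between the letters. With days accounted for, N mice were higher than J mice by 0.37 ± 0.08 (log2) for Msln (limma adjusted p = 0.0010), 0.36 ± 0.09 for Lrrn4, 0.34 ± 0.09 for Upk3b, 0.28 ± 0.08 for Upk1b and 0.22 ± 0.06 for Wt1, and Krt19 did not pass (0.18 ± 0.12, adjusted p = 0.24). There 17.6% of all genes were called higher in N mice, and 12 of 18 genes of the further mesothelial list were. Marker genes of another tissue went with the letter as well: of the 9 labelled mesenteric arrays with high epididymal genes, 8 were of J mice and 1 was of an N mouse. With the 8 marker list means as covariates the letter calls fell from 4067 to 1347 over all genes, Msln (0.26 ± 0.09, limma adjusted p = 0.049) and Krt19 (0.33 ± 0.11, adjusted p = 0.043) passed, and the other 4 members did not (0.16 to 0.27, adjusted p from 0.050 to 0.069). In the labelled subcutaneous depot Msln (0.35 ± 0.12, limma adjusted p = 0.050) and Lrrn4 (0.36 ± 0.12, adjusted p = 0.048) passed narrowly, beside 5.22% of all genes. In the labelled perirenal depot 0 of 6 and in the labelled perigonadal depot 0 of 3 tested genes passed, beside 0.0589% and 2.36% of all genes.

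Within 3 of the depots the mesothelial genes were high or low together from mouse to mouse. Correlations were taken over the mice of a depot after day and letter were removed, with permutation p-values adjusted over the 60 pairs, of which 49 passed. The share of other gene pairs that pass such a test was not counted. The counts of passing pairs are therefore not shown to be particular to these genes. Between Wt1, Upk3b, Msln and Lrrn4, Pearson's r lay between 0.94 and 0.98 in the labelled subcutaneous (77 mice), 0.80 and 0.96 in the labelled mesenteric (78 mice) and 0.81 and 0.91 in the labelled perirenal depot (79 mice). For Upk3b and Lrrn4, r was 0.96 (rho 0.96), 0.96 (rho 0.96) and 0.91 (rho 0.90) in these depots, with permutation adjusted p of 1.7e-05 for each, and r without the 2 arrays farthest from the median was 0.97, 0.96 and 0.91. All 15 pairs passed by r in each of these 3 depots. By rho 10 of 15 passed in the labelled subcutaneous depot, where the 5 pairs with Krt19 did not (rho 0.12 to 0.21), and all 15 passed in the other 2. In the labelled perigonadal depot 4 of 15 passed by r and 3 by rho. There r between Wt1, Upk3b, Msln and Lrrn4 lay between 0.06 and 0.41 over 74 mice. Wt1, Msln and Lrrn4 were below the low-value filter in this depot, so a low r there does not show that the genes vary apart.

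The promoters of Upk3b and Lrrn4 are shown because, of the 6 genes, these 2 alone matched the RefSeq promoter table (GRCm38.p6). Wt1, Upk1b, Msln and Krt19 are named only. Each line gives the 250 bases before the gene's start, 5′ to 3′ on the gene's strand, at chr5:136038246-136038495 (plus strand) for Upk3b and chr2:132880863-132881112 (minus strand) for Lrrn4, with a match to GGAATG, on either strand, in capitals.
Upk3b: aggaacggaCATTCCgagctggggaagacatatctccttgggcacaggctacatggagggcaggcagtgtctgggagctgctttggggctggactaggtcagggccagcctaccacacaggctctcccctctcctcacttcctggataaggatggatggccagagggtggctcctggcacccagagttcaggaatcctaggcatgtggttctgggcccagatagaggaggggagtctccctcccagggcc
Lrrn4: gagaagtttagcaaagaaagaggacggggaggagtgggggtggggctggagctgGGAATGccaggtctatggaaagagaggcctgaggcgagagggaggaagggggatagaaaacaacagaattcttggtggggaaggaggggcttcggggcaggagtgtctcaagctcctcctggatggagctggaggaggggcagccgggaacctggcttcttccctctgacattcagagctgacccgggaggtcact

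Both windows were searched on both strands for 2 motifs that share no overlap here. GGAATG, the letters of TEAD binding sites, occurred 1 time in each, 241 bases before the start of Upk3b (as its reverse complement) and 196 bases before that of Lrrn4. The same letters occur in 12.64% of 32851 promoter windows of this length. GCGNGGGNG, the letters of WT1 and EGR binding sites, occurred in neither window and occurs in 10.51% of all. The windows were 60.8% and 59.2% G and C, where the median of all was 52.4%. A match of letters is a description of the window only.

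**Figure D3:**
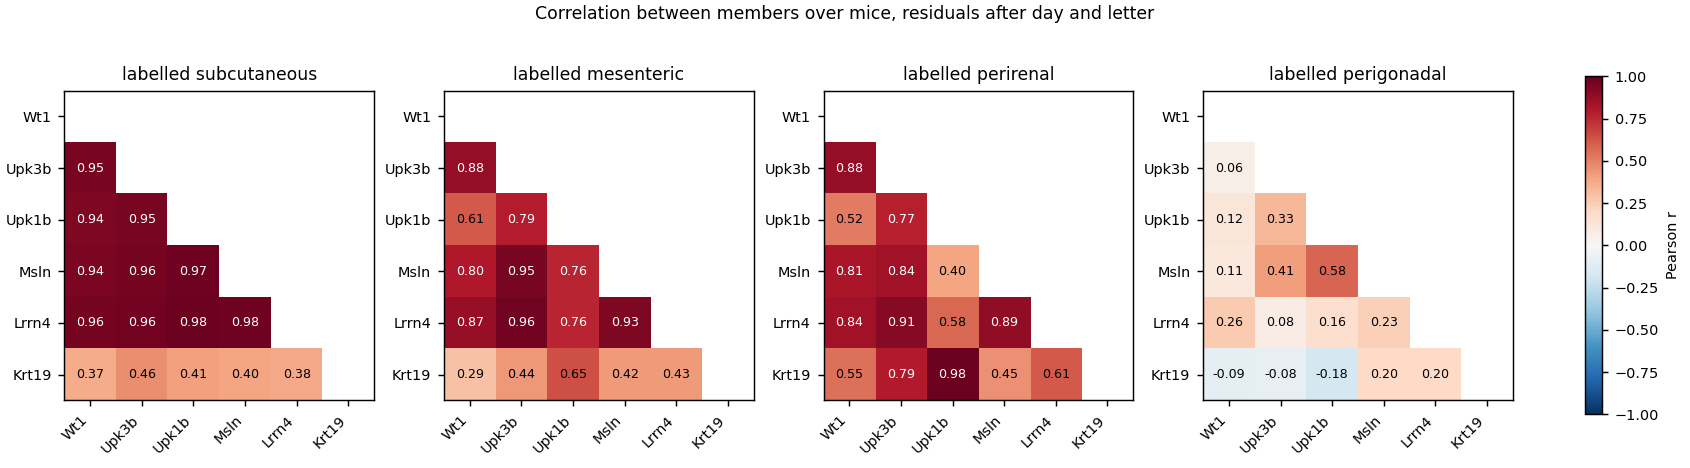
Pearson's r between each pair of mesothelial genes over the mice of one labelled depot, after day and letter were removed (colour and number in each cell). Wt1, Upk3b, Upk1b, Msln and Lrrn4 form a block of high r in the labelled subcutaneous depot that Krt19 does not share. Upk1b and Krt19 pair off in the labelled perirenal depot (0.98). The labelled perigonadal depot, where Wt1, Msln and Lrrn4 were below the low-value filter, shows no block.

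Krt19 stood apart from the group in the labelled subcutaneous depot, and Upk1b and Krt19 did so in the labelled perirenal depot. Summed urothelium genes had a higher median in the labelled subcutaneous (4.13) than in the labelled perirenal depot (1.87). Upk1b had r of 0.94 to 0.98 with Wt1, Upk3b, Msln and Lrrn4 in the labelled subcutaneous depot. The bearing of these sums on r was not tested. In the labelled subcutaneous depot r of Krt19 with the other 5 genes was 0.37 to 0.46, and without the 2 farthest arrays 0.12 to 0.20, so it rests on those arrays, while the other 5 kept r of at least 0.91. In the labelled perirenal depot Upk1b and Krt19 had r = 0.98 (rho 0.98) with each other but 0.40 and 0.45 with Msln. In both depots the arrays were cut into a low and a high cluster at the largest gap in the mean of a marker list of another tissue. Relations were then taken within clusters, a division chosen after seeing the data. The gap was 0.51 (log2) in the labelled perirenal and 0.38 in the labelled subcutaneous depot. Such a cut gives a low and a high cluster in any data, and whether they are separate was not tested. The mesothelial levels of clusters were not compared.

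In the labelled perirenal depot the 5 urothelium genes (Upk1a, Upk2, Upk3a, Krt20 and Psca) split the mice into 43 low and 36 high arrays, with 23 J and 20 N mice in the low and 17 J and 19 N mice in the high cluster. In the low cluster all 15 pairs of the 6 mesothelial genes had r of 0.84 to 0.96 (median 0.92). There the urothelium list had r = 0.20 (rho 0.18, permutation adjusted p = 0.27) with Upk1b and 0.22 (rho 0.24, adjusted p = 0.22) with Krt19. The mean log2 of the list, on which the arrays were cut, ran from -2.07 to -1.36 in the low cluster and from -0.85 to 0.87 in the high one. A narrower span can lower r by itself, so r with the list is not directly comparable between these clusters. In the high cluster the list had r = 0.97 (rho 0.96) with Upk1b and 0.95 (rho 0.95) with Krt19, both at a permutation adjusted p of 1.6e-05, 0.53 with Upk3b (rho 0.47, adjusted p = 0.0015), and 0.18 with Msln and with Lrrn4. Upk1b and Msln, tightly paired in the low cluster, had r = 0.33 (rho 0.26, adjusted p = 0.070) in the high one.

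In the labelled subcutaneous depot the 6 intestinal epithelium genes split the mice into 33 low and 44 high arrays, with 17 J and 16 N in the low and 22 J and 22 N in the high cluster. In the low cluster all 15 pairs had r of 0.94 to 0.99, Krt19 included, and the list had r = 0.27 with Krt19 (rho 0.31, permutation adjusted p = 0.17). In the high cluster the list had r = 0.95 with Krt19 (rho 0.97, permutation adjusted p = 1.6e-05) and 0.03 to 0.18 with the other 5 genes. There r of Krt19 with its fellow members fell to between 0.05 and 0.19, and Wt1, Upk3b, Msln and Lrrn4 kept r of 0.87 to 0.96 among themselves. The adjustment ran over 105 relations within clusters, those of the labelled mesenteric depot included. In that depot 69 of 78 arrays lay in the low cluster of the 6 epididymal genes, where all 15 pairs had r of 0.75 to 0.97, and the other 9 arrays were too few.

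**Figure D4:**
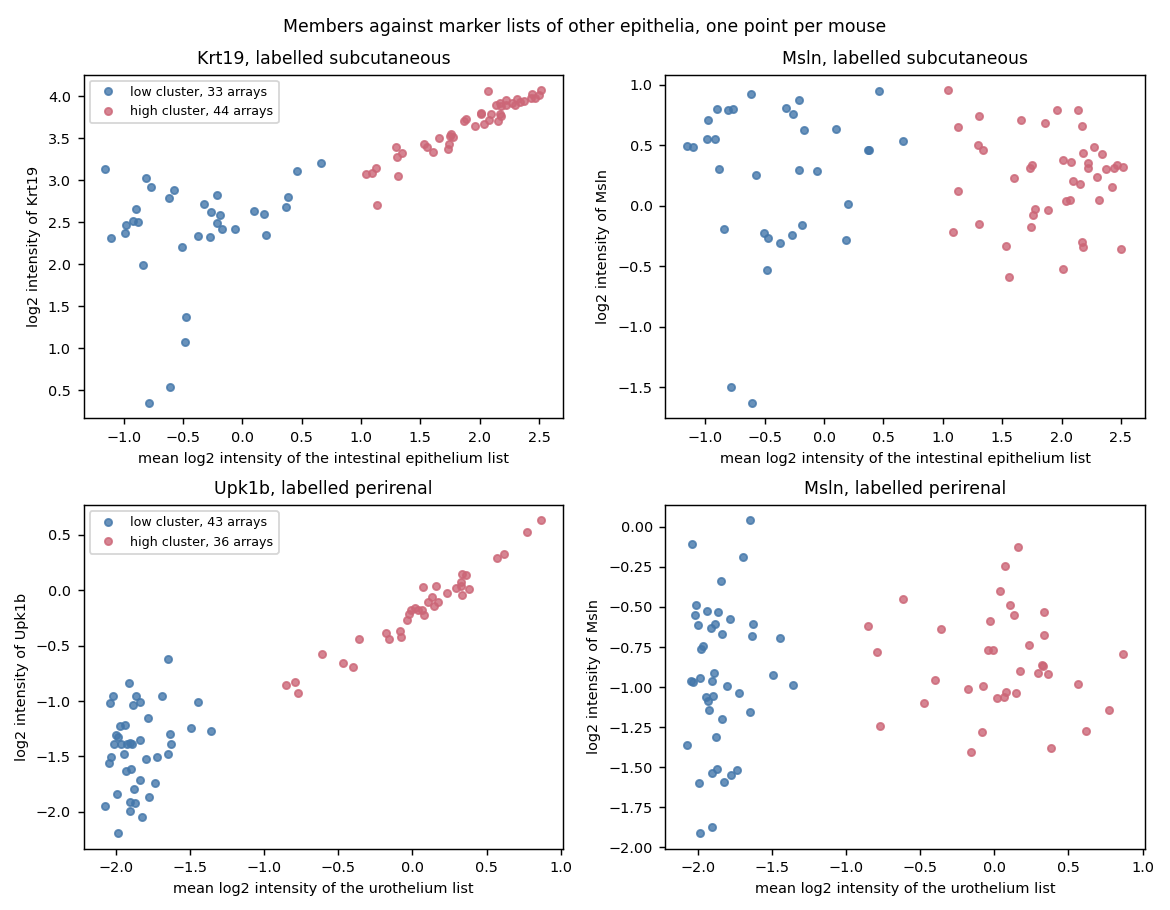
Log2 intensity of Krt19 and Msln in the labelled subcutaneous depot against the mean log2 intensity of the intestinal epithelium list (top), and of Upk1b and Msln in the labelled perirenal depot against the urothelium list (bottom), 1 point per mouse, coloured by cluster. In the high clusters (44 and 36 arrays) Krt19 and Upk1b lie on a line with the list, whereas Msln does not follow it in either depot.

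With the 8 marker list means as covariates, an alternative added after seeing the data, all 15 pairs passed in each of the 3 depots and the lowest r was 0.58 in the labelled subcutaneous, 0.61 in the labelled mesenteric and 0.75 in the labelled perirenal depot. The share of other gene pairs that pass with these covariates was not counted either. The spread that the genes share is wide: the SD of the log2 values within day and letter was 0.47 to 0.80 in the labelled subcutaneous, 0.25 to 0.48 in the labelled mesenteric, 0.38 to 0.82 in the labelled perirenal and 0.06 to 0.23 in the labelled perigonadal depot. At the low end of it, mouse J12 at day 3 had Upk3b at 0.649 and Wt1 at 0.206 in the labelled subcutaneous depot, and mouse J1 at day 21 had Upk3b at 1.11 and Wt1 at 0.258.

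No relation between depots of the same mouse passed the test. For each gene the residual in one depot was set against that in another over 72 to 78 mice, which gave 36 correlations, with r from -0.18 to 0.24. None passed the permutation test after adjustment over the 36, and 1 had an unadjusted p under 0.05 (Lrrn4 between the labelled mesenteric and labelled perigonadal depots, r = 0.24, rho 0.27, adjusted p = 0.55).

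**Figure D5:**
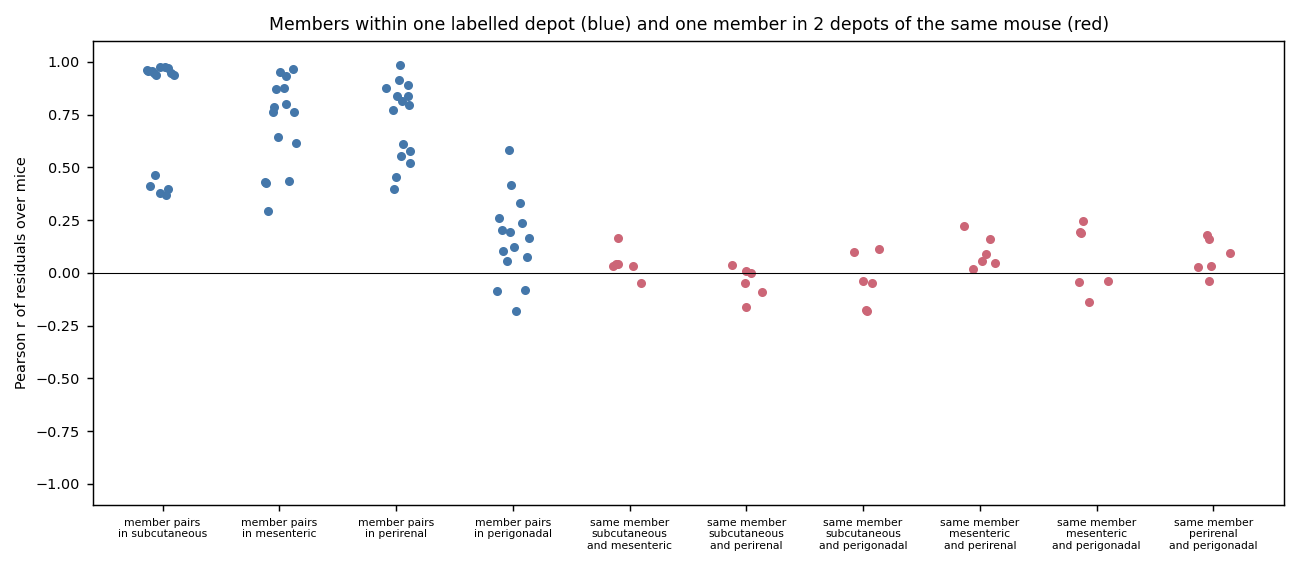
Pearson's r of residuals over mice, for pairs of mesothelial genes within one labelled depot (blue, 15 pairs each) and for a single gene in 2 depots of the same mouse (red, 6 genes each). Within 3 depots most r lie above 0.4, and between depots all lie from -0.18 to 0.24.

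Across mice of the labelled subcutaneous depot the level of 5 of these genes went with transcripts of fat cells and with marker genes of other tissues. Adipoq, which encodes adiponectin, had r of 0.52 to 0.63 with Wt1, Upk3b, Upk1b, Msln and Lrrn4 (rho 0.38 to 0.49, permutation adjusted p at most 0.0032 for either) and 0.03 with Krt19, and Lep had r of 0.34 to 0.45 with the same 5. Without the 2 farthest arrays r with Adipoq was 0.40 to 0.51. The list of B and T cell genes had r of -0.67 to -0.56 with the same 5 genes, and that of adrenal cortex genes 0.46 to 0.57 (permutation adjusted p at most 0.00045 over 192 relations with marker lists, of which 14 of 48 passed in this depot). The part of these lists in the relation with Adipoq was not tested. Of the 48 relations with Lep and Adipoq, 13 passed by r, and 11 of them were in this depot. The others were Adipoq with Wt1 in the labelled mesenteric depot (r = 0.34, rho 0.24, with a rho that did not pass) and Lep with Lrrn4 in the labelled perigonadal depot (r = -0.60, rho -0.57). None passed by r in the labelled perirenal depot. By rho 14 of the 48 passed, among them Lep with Upk1b (r = -0.06, rho -0.39, permutation adjusted p = 0.0020) and Lep with Krt19 (r = -0.14, rho -0.45, adjusted p = 0.00054) in the labelled perirenal depot and Lep with Krt19 in the labelled mesenteric depot (r = -0.23, rho -0.38, adjusted p = 0.0025). Without the 2 farthest arrays r of these 3 was -0.32, -0.35 and -0.32.

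The genes whose levels moved most like the members were ranked by the mean, over the labelled subcutaneous, mesenteric and perirenal depots, of r between a gene's residual and the mean scaled residual of the 6 genes, over 12820 genes. This is a description of shared libraries and carries no test. Bnc1 (0.93), Nkain4 (0.93), Muc16 (0.91), Gpm6a (0.87), AI661453 (0.86), Rspo1 (0.86), Myrf (0.85) and Tmem151a (0.81) led the genes outside the group. Of the members, which are part of that mean, Upk3b reached 0.98, Lrrn4 0.95, Msln 0.91, Wt1 and Upk1b 0.89, and Krt19 0.67. Bnc1 also shared the order of depots, with median intensities of 0.478, 0.352, 0.123 and 0.0166 in the labelled subcutaneous, mesenteric, perirenal and perigonadal depots, as did Muc16 with 0.402, 0.338, 0.223 and 0.0286. Nkain4 had medians of 1.19, 0.854, 0.518 and 0.208. Not every gene of the further list went with them: Aldh1a2, which makes retinoic acid in mesothelium and other cells, had a mean r of 0.23. Ezr (0.13), Prr15 (0.20), Cldn15 (0.27) and Cd200 (0.28) were as low, and Krt8 and Krt18 (both 0.45) and Krt7 (0.66) lay between.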

How the data were processed

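RNA of 466 mouse tissue samples was hybridised to Affymetrix arrays, per the labels. The submitters deposited 1 table of normalized linear intensities for 32640 probe sets, from 0.00638 to 39.3, with array means of 0.962 to 0.999; no label or header names the software, background correction or scaling. The table's intensity values were taken as deposited, without offset, as log2. Probe sets were named through the platform's probe-to-gene table (25508 with 1 symbol, 7132 unnamed), each gene by its probe set with the highest mean.

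Depots were compared at days 0 and 42, and days with day 0 within each depot, by limma 3.58.1 in R 4.3.3 (eBayes with trend and robust options, letter J or N as a covariate, the mouse without a letter at a level of its own). Genes with a mean log2 at or below percentile 25 of all probe sets were left out, and a call is a Benjamini-Hochberg adjusted p under 0.05 over all genes of the fit. Differences in the day 42 response between 2 depots were tested as the interaction of depot and day, with no animal block. Correlations used residuals after day and letter and 100000 permutations (Python 3.11.15, numpy 2.4.6, scipy 1.17.1), the mouse without a letter left out. The fits were tested on simulated data. No 2 arrays were identical, and array medians within a depot lay close together (0.224 to 0.276 over the fat arrays). Mice are the replicates; the number of arrays limits the precision.

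Named genes are the 6 members, Lep, Mest and Adipoq, marker genes of other tissues, genes of a further mesothelial list and the 8 genes most like the members. The members and lists were chosen with earlier results of these data known. The arrays of 1 mouse share its number across depots; a gene's residuals in 2 depots of 1 mouse had r from -0.18 to 0.24.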

Additional observations from a re-analysis of the deposited data

Results flagged for a closer look

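Within days of 4 to 10 arrays of a depot, 78 groups were searched for a value that stood far from the rest, and 3 were found by Dixon's criterion, the gap to the nearest value as a share of the range; chance flags about 1 in 20 such groups. Krt19 in the labelled mesenteric array of mouse J20 at day 1 was 2.85, where the median of the 5 mice was 1.64 and the gap to the next value was 0.762 of the range. Wt1 in the labelled perirenal array of mouse N14 at day 60 was 0.0785, where the median of the 6 mice was 0.321 and the gap was 0.635 of the range; Upk3b, Upk1b, Msln, Lrrn4 and Krt19 were low in this array as well, at 0.396, 0.219, 0.266, 0.116 and 1.02. Msln in the labelled perigonadal array of mouse J47 at day 14 was 0.0499, where the median of the 10 mice was 0.0407 and the gap was 0.50 of the range.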

How the results depend on the processing

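The called depot differences kept their direction under every alternative run. Of 36, 34 were called at day 0 and 33 at day 42, and both counts were the same with the animal as a replicate block (34 and 33), which changed no call. At day 0 the count was 29 with J mice alone; at day 42 it was 29 with quantile normalization, 32 with the mean of a gene's probe sets, 32 with J mice alone (Upk3b between the labelled mesenteric and labelled perirenal depots lost) and 28 with N mice alone. In the labelled mesenteric depot 10 day comparisons and 3 F tests were called, and this became 0 and 0 with J mice alone, 16 and 5 with N mice alone, and 2 and 0 with the marker lists as covariates. Fewer mice and additional terms are part of how these alternatives are built. The labelled subcutaneous and perirenal depots had no day call, which became 1 in the labelled perirenal depot with marker lists as covariates (Krt19 at day 42, 0.43) and 1, with 1 F test, without mouse N14. In the labelled perigonadal depot 5 day comparisons and 1 F test became 0 and 0 with N mice alone and 10 and 2 with no filter on low values; 4 correlated pairs became 1 with N mice alone and 1 with marker lists. The 15 pairs became 10 in the labelled subcutaneous depot with N mice alone, and with J mice alone 11 in the labelled mesenteric and 14 in the labelled perirenal depot; all lost pairs but Upk1b with Msln in the latter involve Krt19. The 2 letter differences in the labelled subcutaneous depot became 0 with quantile normalization and 0 with no filter. Leaving out each day 1 mouse gave 10 to 10 day calls and 3 to 4 F tests in the labelled mesenteric depot, 5 to 5 and 1 to 1 in the labelled perigonadal depot and 0 to 0 in the others. All calls are at other days, which hold no day 1 array, so this says nothing about their stability; single mice of the called days were not left out in turn. Wt1 and Krt19 in the labelled mesenteric depot had a correlation of 0.29, and -0.13 with J mice alone. Across all genes, J mice alone gave 56 calls at day 21 in the labelled mesenteric depot, where all mice gave 2239 and N mice alone 2148. The cause of the other changes was not tested. The table has no detection calls, so low labelled perigonadal levels have no known distance from background.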
